A study of Saccharomyces cerevisiae with 3 samples.

Results

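The genes described here are highly transcribed genes of budding yeast that do not code for ribosomal proteins (RP). They were taken from a list of 334 highly transcribed genes used by the study. Of these, 133 have exactly 1 listed transcription start site (TSS) and polyadenylation site (pAS). After 4 genes that are also in the RP list, 4 in the list of genes with an asymmetric −1 nucleosome and 6 genes of glycolysis or the heat shock response were set aside, 119 members remained, of 1971 genes listed once in all. The table of sites was used in part, with 1999 rows, so every member lies within the first part of its chromosome and no member has a TSS beyond position 305073. The members lie on 15 chromosomes, 62 of them on the Watson strand, and their median length from TSS to pAS was 1408 bp, against 1560 bp in the other genes.

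All 3 libraries are of nucleosome-sized fragments released by micrococcal nuclease (MNase). One library is of naked DNA, purified from wild-type BY4741 cells and free of histones, and 2 are replicates of chromatin from *dst1∆* cells, a BY4741 derivative that lacks TFIIS. Cells were grown in YPD, and all of them carry BY4741's markers *MATa*, *his3Δ1*, *leu2Δ0*, *met15Δ0* and *ura3Δ0*. Wild-type chromatin was not analysed here, so each value compares *dst1∆* chromatin with naked DNA and no value compares the mutant with the wild type.

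MNase cuts linker DNA between nucleosomes, but it also prefers some sequences, so naked DNA shows where the enzyme alone leaves fragments of nucleosomal size. A typical yeast gene has a nucleosome-depleted region (NDR) upstream of its TSS, a well-placed +1 nucleosome just downstream, and an array of nucleosomes along its body that becomes less regular with distance. RNA polymerase II has to pass these nucleosomes, and TFIIS, the product of *DST1*, helps polymerases that have stalled and moved backwards to resume elongation.

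The libraries held between 9049024 and 16618987 reads, with the naked DNA deepest, and 32.2-fold to 49.7-fold coverage of the nuclear genome. The naked DNA and replicate 1 are 36-nucleotide reads that share a sequencing run according to the methods, while replicate 2 came from longer reads on another instrument, so biological and run-to-run causes of a replicate difference cannot be told apart. Signal is the density of fragment centres on a scale where the genome mean is 100. A ratio is log2 of *dst1∆* to naked DNA signal after a pseudocount of 10 was added to each, which understates the change of low windows. In the promoter window, from 250 to 50 bp upstream of the TSS, 1 fragment was worth 0.556 in naked DNA, 0.792 in replicate 1 and 0.918 in replicate 2. A count of 0 allows a signal of up to 1.67, 2.38 and 2.75, respectively, and such limits cover counting error only. With 1 naked DNA library and 2 replicates, the smallest one-sided p that an exact permutation of the libraries can give is 0.333, so differences are described by their size in each replicate. A fit across all genes with limma was run only as an alternative for the promoter calls.

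A pair of members carries deletions in BY4741, which all 3 libraries share, so they check the strain background and not which library is which. *URA3*, which codes for an enzyme of pyrimidine synthesis, had 0 reads starting between its TSS and pAS in each of the 3 libraries. *LEU2*, an enzyme of leucine synthesis, had 48 reads in naked DNA, 162 in replicate 1 and 121 in replicate 2, with stretches of 1364, 1364 and 654 bp free of reads in a gene of 1472 bp. The absence of *URA3* was visible in every library, while *LEU2* kept some reads, with the shortest read-free stretch in replicate 2. The 117 members that have their DNA in the strain are compared below with 1852 other genes, which include the RP genes. Reads that mapped to several places had been discarded, and this left 3 members with stretches of over 150 bp without reads in every library, as was the case for 12 of the 1852 other genes. *TIF2*, a copy of the gene of translation initiation factor eIF4A, had 575 bp without naked DNA reads, *SSB2*, an Hsp70 chaperone at the ribosome, 495 bp, and *LYS20*, a homocitrate synthase of lysine synthesis, 211 bp. All 3 have a close paralog, and their gene body values are uncertain.

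The promoters of highly transcribed genes had a median signal well under the genome mean in all 3 libraries, naked DNA included. The median signal of the promoter window was 44.4 in replicate 1 and 30.3 in replicate 2, against 42.3 in naked DNA. In the other genes it was 49.1 and 56.9, against 38.4 in naked DNA. The median ratio of the members was −0.17 and −0.49 in the replicates, and that of the other genes was 0.15 and 0.14. The members thus lay lower by a log2 difference of −0.32 in replicate 1 and −0.63 in replicate 2 (−0.47 ± 0.22, SD, n = 2 replicates), or of −0.25 ± 0.08 when 1 read per strand position was kept. The plot of each member's promoter shows how widely they spread, from nearly empty in all 3 libraries to several times the genome mean.

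**Figure D1:**
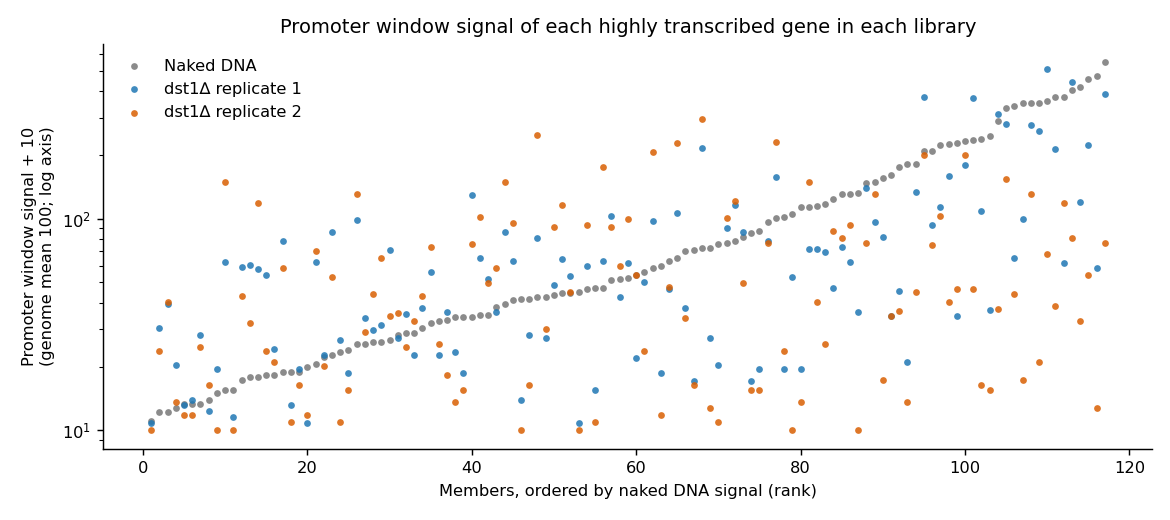
Signal plus 10 in the promoter window of each of the 117 members (log axis, genome mean 100), ordered by naked DNA signal, with 1 point each for naked DNA (grey), *dst1∆* replicate 1 (blue) and replicate 2 (orange). Naked DNA runs from 1.11 to 537, and at its high end most points of replicate 2 lie well under it.

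Low promoters were more frequent among the members, and high ones less so. In 26 of the 117 members (22.2%) the promoter was at least 2-fold lower than naked DNA in both replicates, and over all 1969 genes with DNA in the strain this was so in 17.2%. It was at least 2-fold higher in 11 members (9.40%), against 17.5% of all genes. The promoter window was close to empty, with a signal under 20 in both replicates, in 31 members (26.5%) and in 292 other genes (15.8%). This window spans more than the NDR. It reaches the upstream peak of the mean profile, at −224 and −221 bp in the other genes and at −248 and −247 bp in the members. At the other end, 7 members (5.98%) and 224 other genes (12.1%) had over 100 in both replicates. When each library was scaled to its genome median in place of its mean, the median ratio of all genes at promoters moved from 0.14 to −0.63 in replicate 1 and from 0.10 to −0.60 in replicate 2, and 54 members were then called lower and 7 higher, against 33.9% and 9.40% of all genes.

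Naked DNA is the denominator of the ratio, so low naked DNA by itself raises the ratio and high naked DNA lowers it, and members were therefore set beside other genes of like naked DNA. When all genes were split into 3 equal parts by naked DNA signal, at 22.2 and 72.3, the 35 members with the lowest naked DNA had a median of 19.8 in replicate 1 and 14.7 in replicate 2, and the 632 other genes of that part had 30.1 and 42.2. Of these members 8 (22.9%) were at least 2-fold above naked DNA, against 40.03% of the other genes of that part. The signal under 20 in both replicates was found in 15 of these 35 members (42.9%) and in 24.4% of the other genes. Among the 44 members with the highest naked DNA, 19 (43.2%) were at least 2-fold below it in both replicates, as were 37.8% of the other genes of that part.

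A fragile −1 nucleosome, which is sensitive to MNase and lies just upstream of the TSS, was listed for 69 members (59.0%) and for 34.6% of the other genes. A stable −1 nucleosome was listed for 23 members (19.7%) and for 37.8% of the others, from a list used in part. Within the fragile list the counts of members and other genes were close, and the ratio of the members was lower in replicate 2. Of the fragile members 23 (33.3%) had a lower promoter in both replicates, against 30.3% of the 641 other fragile genes, and the median ratio was −0.49 and −1.44 in the replicates, against −0.48 and −0.93. All but 3 of the 26 members with a lower promoter were thus in the fragile list, which holds 59.0% of all members. As given above, other fragile genes had a lower promoter about as often as fragile members. A signal under 20 in both replicates was also about as frequent, in 34.8% of fragile members and 33.4% of other fragile genes. In the stable list it was found in 8.70% and 6.14%. The neighbourhood of the gene also went with the difference in ratio. A further listed TSS or pAS lay within 500 bp upstream in 64 members (54.7%) and in 70.0% of the other genes, and among genes without such a neighbour, 10 of 53 members (18.9%) and 115 of 556 other genes (20.7%) had a lower promoter. In these genes the log2 difference between members and others was −0.14 ± 0.23 (SD, n = 2 replicates), within the spread between replicates. The difference in signal remained there. A signal under 20 in both replicates was found in 15 of these 53 members (28.3%) and in 14.4% of these other genes. A signal over 100 in both was found in 1.89% and 13.7%.

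Abf1, Rap1 and Reb1 are general regulatory factors that bind promoters and keep them open. The study lists 38 members (32.5%) as bound by Abf1, 41 (35.0%) by Rap1 and 4 (3.42%) by Reb1, against 20.9%, 20.1% and 5.08% of the other genes. The promoters of the Abf1 members had medians of 57.8 in naked DNA, 50.3 in replicate 1 and 18.4 in replicate 2, and 11 (28.9%) were lower in both replicates, against 22.2% of the 387 other Abf1 genes and 17.2% of all genes. In the Rap1 members the medians were 86.7, 51.5 and 30.3 and 13 (31.7%) were lower, and in the 372 other Rap1 genes they were 61.7, 51.5 and 33.5 with 102 lower (27.4%). Both sets of Rap1 genes thus had a higher share of lower promoters than all genes, and the difference between the sets was not tested. RP genes were not taken out of the other Rap1 genes, and no count without them is given.

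Single promoters show what these classes look like. *CHA1*, which codes for a serine and threonine deaminase used when these amino acids are a nitrogen source, lies on chromosome III with its TSS at 16949 and its pAS at 15237 (sacCer2). Its promoter signal was 461 in naked DNA, 48.3 in replicate 1 and 2.75 in replicate 2, the lowest ratio of all members with at least 50 naked DNA fragments, at −3.01 and −5.21. Naked DNA left many fragments there and chromatin few, in replicate 2 about as few as a count of 0 allows.

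*THO1*, a nuclear RNA-binding protein of mRNA packaging, had a promoter signal of 172 in naked DNA, 11.1 in replicate 1 and 3.67 in replicate 2. *MCR1*, a mitochondrial cytochrome b5 reductase, had 236, 26.9 and 5.51. Both replicates were far below naked DNA in both genes. The window of *MCR1* shares 154 bp with the pAS region of another member, *NNR2*, and its listed TSS lies 4 bp from the pAS of that gene on the other strand, so its listed body spans *NNR2* as well. *VHR2*, a transcription factor convergent with *THO1*, had 103, 9.51 and 3.67, so both genes of this convergent pair had a promoter far below naked DNA.

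The highest ratios were those of *ISC1*, *PER33* and *SHR5*. *ISC1*, a phospholipase that cleaves inositol sphingolipids, had a promoter signal of 62.8 in naked DNA, 204 in replicate 1 and 286 in replicate 2. *PER33*, a membrane protein of the endoplasmic reticulum, had 32.8, 71.3 and 238. *SHR5*, a subunit of the enzyme that palmitoylates Ras, had 29.5, 76.9 and 139. Here both replicates lay above naked DNA, and replicate 2 above replicate 1. The *PER33* window lies over the end of the adjacent member *BMT6*, an rRNA methyltransferase whose pAS falls on the TSS of *PER33*, and it shares 150 bp with the pAS region of that gene.

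Promoters that MNase left most intact without histones were those of *SUR7*, *CHA1* and *KES1*. *SUR7*, a plasma membrane protein of the cortical domains called eisosomes, had a promoter signal of 537 in naked DNA, 377 in replicate 1 and 67.0 in replicate 2. *KES1*, an oxysterol-binding protein that carries lipids, had 447, 212 and 44.1. In both genes replicate 1 was nearer to naked DNA than replicate 2 was.

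At the other extreme, 3 promoters gave almost no fragment in naked DNA. *BUD20*, a factor of 60S ribosomal subunit assembly, had 1.11 in naked DNA, 0.792 in replicate 1 and 0 in replicate 2, so this promoter was empty in every library. *FLX1*, a mitochondrial FAD transporter, had 2.22, 20.6 and 13.8. *ENB1*, a transporter of iron bound to enterobactin, had 2.22, 29.3 and 30.3. In the last 2 the chromatin signal was above naked DNA in both replicates, though both stayed well under the genome mean. In all, 15 members (12.8%) and 143 other genes (7.72%) had under 20 in all 3 libraries, and chromatin without a nucleosome cannot be told apart there from DNA that yields no fragment of this size.

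**Figure D2:**
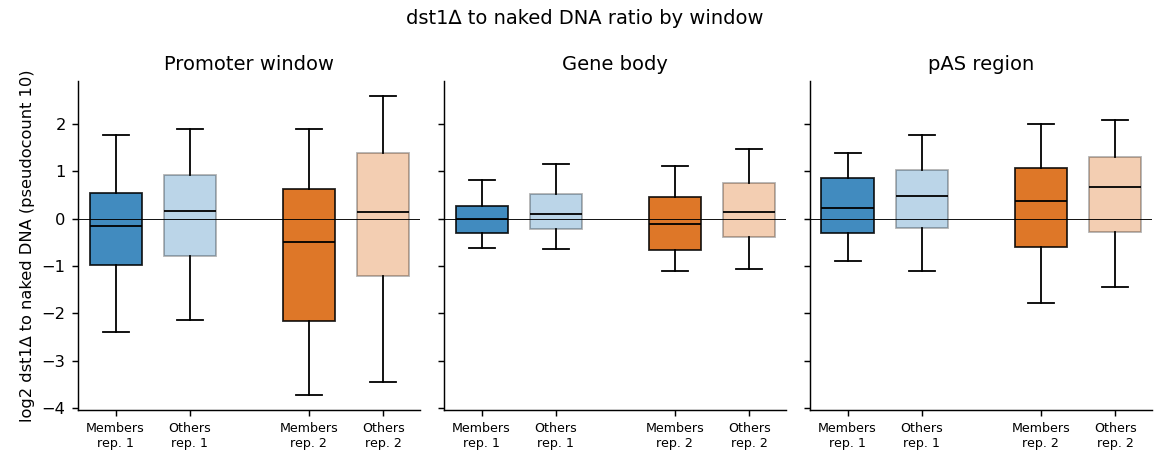
Ratio of *dst1∆* to naked DNA (log2, pseudocount 10) in the promoter window, the gene body and the pAS region, for 117 members (dark) and 1852 other genes (light) in replicate 1 (blue) and replicate 2 (orange). Boxes give the quartiles, black lines the median and whiskers the 5th and 95th percentiles. The members' median is the lower in each pair, by −0.32 and −0.63 at promoters.

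Drops from replicate 1 to replicate 2 of *dst1∆* were most frequent where naked DNA was high. Replicate 2 held at most 50% of replicate 1 at the promoter of 25 members (21.4%), against 16.9% of all genes, and at least 2-fold more at 9 (7.69%), against 16.3%. Of the 38 members with a naked DNA signal over 100, 19 (50.0%) fell to 50% or less in replicate 2, and of the 79 others 6 (7.59%) did so. In the other genes these shares were 39.9% of 499 and 8.06% of 1353. The members of the TATA list accounted for 14 of the 25 genes, 40% of the 35 TATA members, while 3 of the 48 TATA-like members (6.25%) did so. Outside the members, 23.8% of 344 TATA genes and 16.1% of 865 TATA-like genes fell to 50% or less.

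*ISU1*, a scaffold on which iron-sulfur clusters are built, had the largest drop, with 343 in naked DNA, 249.6 in replicate 1 and 11.02 in replicate 2. Its window reaches into the body of a divergent member, *GIP3*, described below. *PDR16*, a phosphatidylinositol transfer protein, had 279, 302 and 27.5. *CIS3*, a mannoprotein of the cell wall, had 225, 362 and 36.7. Replicate 1 was thus at or above the naked DNA level in the last 2, and replicate 2 was low in all 3. Of the 3, only *ISU1* was under 20 in replicate 2.

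Of the 9 members with at least 2-fold more in replicate 2, the 3 with the highest ratio of replicates are given. *PER33* went from 71.3 in replicate 1 to 238 in replicate 2, as above. *SUI1*, translation initiation factor eIF1, had 37.3 in naked DNA, 53.1 in replicate 1 and 166 in replicate 2. *USA1*, a scaffold of the ubiquitin ligase that acts on misfolded proteins of the endoplasmic reticulum, had 43.9, 11.9 and 44.1, so that replicate 2 was at the naked DNA level. None of the 3 had naked DNA above 100.

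**Figure D3:**
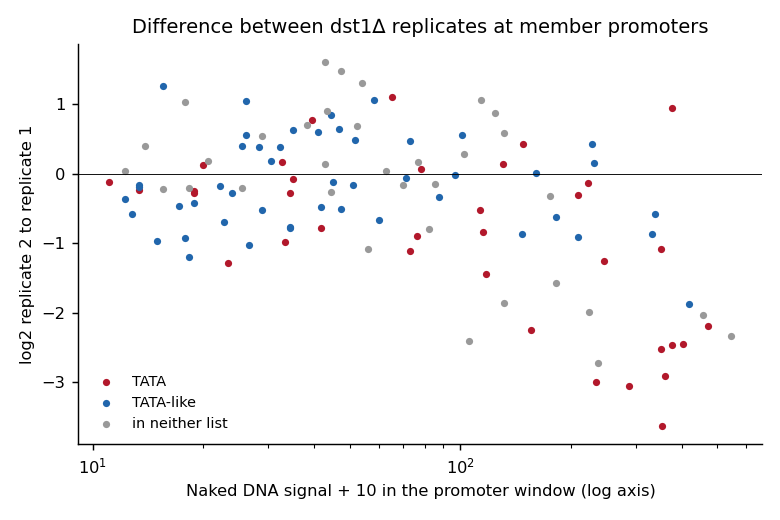
Log2 of replicate 2 to replicate 1 in the promoter window of the 117 members against naked DNA signal plus 10 (log axis), coloured by TATA list (35), TATA-like list (48) or neither list as used (34). Points under −1 lie mostly to the right, where 19 of the 38 members with naked DNA over 100 are found.

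In the other windows the replicates differed less often. Replicate 2 held at most 50% of replicate 1 in the first 150 bp of 11 members (9.40%), in the body of 5 (4.27%) and in the pAS region of 9 (7.69%), against 12.8%, 1.98% and 5.64% of all genes. It held at least 2-fold more in 18, 2 and 6 members, against 17.6%, 1.02% and 6.65% of all genes. The likeness of the libraries was described over the 117 members. Spearman's rank correlation of naked DNA with replicate 1 was 0.58 at promoters, 0.92 in gene bodies and 0.75 at pAS regions, and with replicate 2 it was 0.25, 0.56 and 0.44. The replicates had 0.72, 0.61 and 0.64 with each other. In gene bodies replicate 1 was thus more like naked DNA, with which it shares a run, than like replicate 2, and the part of the run in this was not tested. Members share libraries and some of them windows, so these values carry no test.

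Downstream of the TSS, the members had a +1 nucleosome at the usual place. It was called in 104 of the 117 in replicate 1 and 103 in replicate 2, at a median of 50.5 and 57 bp from the TSS, against 50 and 51 bp in the other genes. A nucleosome here is a peak of the corrected signal, that is *dst1∆* minus naked DNA with negative values set to 0. In 98 members called in both replicates, 79 (80.6%) had their +1 within 20 bp in the other replicate, against 89.4% of 1563 other genes. The distance from +1 to +2 had a median of 169 and 173 bp, against 171 bp in both replicates for the other genes, a difference of −2 and 2 bp. In the first 150 bp of the gene, 48 members (41.0%) were at least 2-fold above naked DNA in both replicates and 5 below, against 37.1% and 4.93% of all genes. The 5 were *SMF1*, *YGK3*, *ENB1*, *ECM15* and *STE2*, named after their values were seen.

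The −1 nucleosome lay farther away in the members. The distance from it to +1 had a median of 286 bp in both replicates, against 267 and 270 bp in the other genes (a difference of 17.5 ± 2.12 bp, SD, n = 2 replicates). In the fragile list the medians were 312.5 and 319 bp for the members and 302.5 and 308 bp for the others, and in the stable list 256.5 and 252 bp against 253 and 258 bp. The RP genes had wider gaps, of 389.5 and 433 bp.

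**Figure D4:**
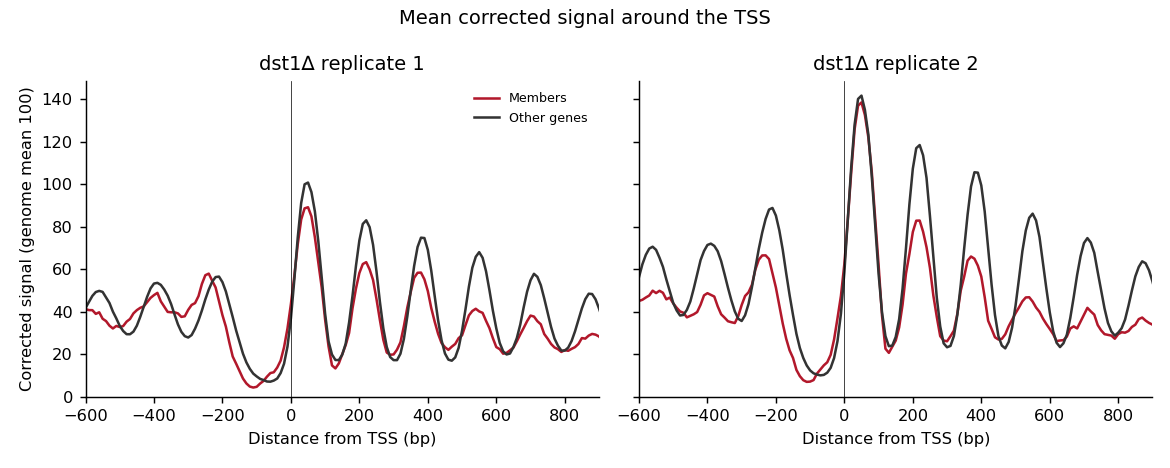
Mean corrected signal (*dst1∆* minus naked DNA, genome mean 100) around the TSS of 117 members (red) and 1852 other genes (black), in each replicate. The +1 peaks reach 89.4 and 101 in replicate 1 and 139 and 142 in replicate 2, and the later peaks of the members are lower than those of the other genes.

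Beyond +1, the mean profile of the members had lower peaks. Their mean corrected signal peaked at 89.4, 63.6, 59.7 and 41.5 for +1 to +4 in replicate 1, against 101, 83.3, 75.6 and 68.1 in the other genes. In replicate 2 the peaks were 139, 84.2, 66.5 and 47.8, against 142, 119, 107 and 86.4. In this mean profile the first peak was therefore nearly as high as in the other genes in replicate 2, and the fourth was much lower in both replicates. Gene by gene, the called +1 peaks of the members were lower in both replicates. Their median heights were 94.5 and 132, against 106 and 162 in the other genes. A cosine wave of 4 periods fitted from 30 to 690 bp downstream had an amplitude of 53.5% and 51.3% of the mean signal in the members, and of 68.8% and 68.5% in the other genes. The difference of the members from the others was −16.2 ± 1.36 percentage points (SD, n = 2 replicates), and −7.90 ± 4.13 when repeated reads were all kept. The wave accounted for 77.5% and 60.0% of the variance of the members' profile, against 93.2% and 92.9% in the other genes. The lower amplitude thus cannot be read as depth alone, and a mean over 117 genes is less even than one over 1852. Called nucleosomes were also fewer, with medians of 4.50 and 4.17 per kb of gene body against 5.10 and 4.76.

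The low wave amplitude was found in the members outside the TATA-like list. A canonical TATA box is the promoter element bound by TBP, and TATA-like promoters differ from its consensus. The list of TATA genes holds 35 members and that of TATA-like genes 48, both used in part. In the TATA-like members the amplitude was 72.9% and 70.2% of the mean, against 73.3% and 73.2% in the 865 other TATA-like genes. In the TATA members it was 35.0% and 8.60%, against 40.3% and 40.7% in the 344 other TATA genes. In the 34 members of neither list as used it was 47.8% and 60.4%, against 79.0% and 76.7% in the 643 other genes of neither list. The TATA-like members were thus close to the other TATA-like genes in both replicates, the TATA members were well below the other TATA genes in replicate 2 only, and the members of neither list were below their counterparts in both. The wave accounted for 44.7% and 5.28% of the variance of the TATA members' profile along this stretch, against 91.5% and 95.4% in the other TATA genes. In replicate 2 their mean profile thus did not follow a wave of this period, and the low amplitude cannot be read as depth alone. The same limit holds for the members of neither list, where the wave accounted for 53.9% and 54.8%, against 92.4% and 92.1% in the other genes of neither list. Within the members the TATA list differed from the TATA-like list by −49.7 ± 16.8 percentage points (SD, n = 2 replicates), and by −37.9 and −61.6 in the single replicates.

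**Figure D5:**
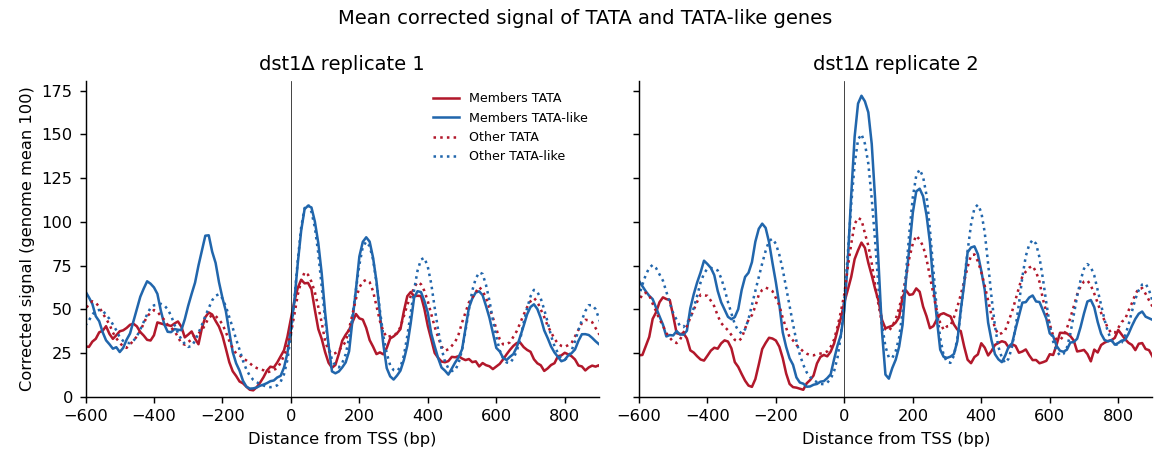
Mean corrected signal around the TSS of TATA (red) and TATA-like (blue) genes, members as solid and other genes as dotted lines, in each replicate. The solid blue line has regular peaks beside the dotted one, with +1 at 109.5 and 173, while the solid red line is less regular, with +1 at 66.9 and 89.2.

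The lists differed in naked DNA as well. Over the same stretch naked DNA had a mean signal of 178 in TATA members and 113 in TATA-like members, and a wave of the same period fitted to naked DNA itself had an amplitude of 18.5% and 7.74% of it. Without the naked DNA correction the *dst1∆* amplitude was 15.1% and 10.1% in the TATA members, 48.9% and 52.8% in the TATA-like members and 20.0% and 25.4% in the other TATA genes. The order of the lists was thus the same without the correction. A mean over 35 genes is also less even than one over many more. A mean profile is flatter where +1 positions vary between genes. In the TATA members the +1 quartiles were 31 and 87 bp in replicate 1 and 31.25 and 121 bp in replicate 2. They were 41 and 69 bp, and 46.5 and 66 bp, in the TATA-like members. In the other TATA genes they were 32 and 93.75 bp, and 30 and 97 bp. The part of naked DNA, gene number and +1 position in the difference was not tested. The +1 nucleosome was called in 29 and 28 of the 35 TATA members and in 45 and 46 of the 48 TATA-like members, and gene bodies held 3.59 and 3.83 nucleosomes per kb against 4.93 and 4.49.

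The promoters of the lists differed along with their bodies. The TATA members had a median promoter signal of 105 in naked DNA, 59.4 in replicate 1 and 15.6 in replicate 2, and the TATA-like members had 28.1, 45.2 and 33.5. In the other TATA genes the medians were 72.3, 57.8 and 49.6. Both replicates were below naked DNA in the TATA members and above it in the TATA-like members.

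Over whole gene bodies, with each library at its genome mean, the members carried about as much *dst1∆* signal as naked DNA. The medians were 101.7 in naked DNA, 99.9 in replicate 1 and 100.8 in replicate 2, against 92.6, 97.3 and 106.2 in the other genes. The log2 difference between members and others was −0.12 and −0.27 (−0.19 ± 0.11, SD, n = 2 replicates). No member was at least 2-fold lower in both replicates, where 0.863% of all genes were, and 2 members (1.71%) were higher, against 6.15% of all genes. These are *RDI1* and *VMA8*, a subunit of the vacuolar proton pump. These counts rest on the scaling. Under scaling to the genome median, the ratio over all gene bodies had its median moved from 0.09 to −0.74 in replicate 1 and from 0.14 to −0.66 in replicate 2, and 36 members (30.8%) were then lower and 0 higher, against 23.2% and 1.17% of all genes.

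*RDI1*, on chromosome IV with its TSS at 219365 and its pAS at 218381, had a gene body signal of 18.2 in naked DNA, 64.2 in replicate 1 and 107 in replicate 2. *VMA8* had 39.99, 95.9 and 143. *MRP8* had 20.9, 41.9 and 80.9. Both replicates lay above naked DNA in all 3 genes, which were chosen by that ratio. The lowest ratios were those of *ATG41*, *VHR2* and *TSA1*. *ATG41*, which acts in autophagy, had 383 in naked DNA, 199.8 in replicate 1 and 124 in replicate 2. *VHR2* had 139, 83.5 and 58.8, and *TSA1*, a peroxiredoxin that removes peroxides, had 289, 235 and 96.5. In these genes naked DNA was highest, then replicate 1, then replicate 2.

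The fuzziness score, the SD of position around a nucleosome within 100 bp, was alike in the gene bodies of members and others. Its median was 31.0 and 31.5 bp in the members and 30.6 and 31.4 bp in the other genes, a difference of 0.16 ± 0.22 (SD, n = 2 replicates), or of 1.97 ± 0.08 when naked DNA was not subtracted. Within 500 bp of the TSS the members averaged 29.1 bp in replicate 1 and 29.4 bp in replicate 2, against 26.4 and 27.7 bp in the other genes, and 13.4% and 11.6% of their nucleosomes scored over 40 bp, against 7.50% and 9.88%. From 1000 to 1500 bp the means were 34.6 and 34.4 bp in the members and 35.0 and 35.01 bp in the others, so that the members were no longer the higher.

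Around the pAS, the ratio of *dst1∆* to naked DNA was lower in the members than in the other genes, and its sign depended on the scaling. Within 200 bp of the pAS on either side the medians were 35.3 in naked DNA, 48.3 in replicate 1 and 59.7 in replicate 2, against 35.7, 59.0 and 68.6 in the other genes. The log2 difference was −0.25 and −0.30 (−0.28 ± 0.03, SD, n = 2 replicates). In 20 members (17.1%) the region was at least 2-fold above naked DNA in both replicates and in 4 (3.42%) below it, against 21.1% and 4.27% of all genes. With scaling to the genome median the median ratio of all genes moved from 0.47 to −0.26 in replicate 1 and from 0.65 to −0.03 in replicate 2, and 7 members (5.98%) were then higher and 36 (30.8%) lower, against 7.77% and 21.5% of all genes. The difference was −0.088 ± 0.21 among genes without a neighbouring site upstream, less than the spread between replicates, and −0.18 ± 0.02 without the 47 members that lie within 1000 bp of another member.

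*ERG3*, a desaturase of ergosterol synthesis, had a pAS signal of 15.3 in naked DNA, 61.0 in replicate 1 and 120.3 in replicate 2. *BMT6* had 16.1, 48.3 and 140, and *UTP20*, a component of the complex that processes the small ribosomal subunit's RNA, had 15.6, 52.3 and 86.3. Both replicates were above naked DNA in all 3. *ZEO1*, a protein of the plasma membrane, had 108 in naked DNA, 15.4 in replicate 1 and 8.26 in replicate 2, and was the lowest. The other members that were lower in both replicates were *PCL1*, a cyclin, *ADE16*, an enzyme of purine synthesis, and *YFL032W*, for which no role is given here. *EAF5*, a subunit of the NuA4 histone acetyltransferase, had 352, 273 and 24.8, and *NNR2*, an enzyme that repairs NADHX, had 313, 224 and 34.0. In these 2, replicate 1 stayed near naked DNA and replicate 2 did not.

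Members that lie beside each other read the same DNA in part. Of the 117 members, 47 have another member within 1000 bp, in 28 pairs, and in 24 of these pairs a promoter window or a pAS region of one member overlaps a window of the other. A drop in replicate 2 at the promoter of *TSA1*, from 202 to 28.5 with 366 in naked DNA, and at the pAS of *USA1*, from 265 to 80.8 with 339 in naked DNA, comes from windows that share 190 bp. The promoter of *ZEO1*, at 146 in naked DNA, 72.1 in replicate 1 and 7.34 in replicate 2, and the pAS region of *SHR5*, at 303, 247 and 39.5, share 200 bp. These 4 values are therefore 2 observations.

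Divergent pairs share 1 intergenic region. *GIP3*, a regulator of protein phosphatase 1, and *ISU1* start 148 bp apart. The promoter window of each therefore reaches past the start site of the other and into its body. The *GIP3* window had 10.6 in naked DNA, 52.3 in replicate 1 and 60.6 in replicate 2, where that of *ISU1* had 343, 249.6 and 11.02, and the windows share 48 bp. The lower signal of *ISU1* in replicate 2 was thus not seen in the neighbouring window. *KES1* and *POC4*, a chaperone of proteasome assembly, start 460 bp apart, and *POC4* had 172 in naked DNA, 124 in replicate 1 and 34.9 in replicate 2, ordered as in *KES1*. *TDA2*, a protein of cortical actin patches, and *VTC1*, a subunit of the polyphosphate polymerase, start 348 bp apart with 152 bp of their windows shared, and had 31.1, 53.1 and 85.4, and 36.7, 49.9 and 83.5. Both promoters lay above naked DNA in both replicates.

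Among the functional groups, the 7 members of the translation list had a median promoter signal of 55.0 in naked DNA, 27.7 in replicate 1 and 23.9 in replicate 2. Only *SRO9*, an RNA-binding protein with a La motif, was at least 2-fold lower in both replicates, with 61.2, 7.13 and 6.43. Over all genes 17.2% were lower and 17.5% higher at the promoter. *EFB1*, a subunit of elongation factor 1B that reloads eEF1A with GTP, had 13.3, 16.6 and 0.918. *TEF4*, another subunit of that factor, had 104, 61.8 and 140. Their neighbours in the list spread as widely. *GIS2*, a zinc finger protein that binds mRNAs, had 60.0, 27.7 and 23.9, while *TIF2* had 55.0, 95.9 and 218 and *SSB2* had 5.56, 1.58 and 0. In replicate 2 the promoter signal of these genes ran from 0 to 218, and only *TIF2*, *TEF4* and *SUI1*, all 3 in the stable list, were over 100. Gene bodies had medians of 89.6, 75.1 and 57.3. The pAS region was at least 2-fold above naked DNA in 3 of the 7, *EFB1*, *SRO9* and *TIF2*, against 21.1% of all genes. The 4 genes of the list that are not members had median promoter signals of 22.5, 15.4 and 14.7, and 0 lower and 1 higher.

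Members were also grouped by role, by hand and with no counterpart among the other genes, so these counts are descriptions of small groups. Of 8 members that act on mRNA, 4 promoters were lower in both replicates and 2 were higher, where 17.2% and 17.5% of all genes were. *NRD1*, which helps to terminate short transcripts, had a promoter signal of 122 in naked DNA, 26.1 in replicate 1 and 0 in replicate 2. *HRP1*, a subunit of the cleavage factor that forms mRNA ends, had 95.6, 42.8 and 0, and *NMD2*, a factor of nonsense-mediated decay, had 35.0, 0.792 and 0. Replicate 2 held no fragment in these 3 promoters, and *THO1* was the remaining lower one. *NAM8*, a splicing factor, was higher with 12.8, 76.1 and 43.2, and so was *MFT1*, a subunit of the THO complex of mRNA export, with 7.78, 47.5 and 108.

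Of 9 members of the ubiquitin system, 4 had a lower promoter and 0 a higher one, beside 22.2% and 9.40% of all members and the shares of all genes just given. *UBI4*, the gene of polyubiquitin, had 342 in naked DNA, 89.5 in replicate 1 and 7.34 in replicate 2, and *CDC48*, an ATPase that extracts ubiquitylated proteins, had 329, 55.5 and 34.0. *UBP10*, a deubiquitylase, had 227, 98.2 and 6.43, and *RPN5*, a subunit of the proteasome lid, had 37.3, 5.55 and 0.918. Naked DNA was the highest library in all 4, and none of the remaining 5 was 2-fold below it in both replicates. In the 8 members of ribosome biogenesis, 5 promoters were under 20 in all 3 libraries, as were 12.8% of all members and 7.72% of the other genes, among them *BUD20*, *BMT6* and *ARB1*, and only *ALB1*, a factor of 60S export, was lower, with 151, 24.6 and 24.8.

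*HHF1* and *HHT1* code for histones H4 and H3 and share an intergenic region of 564 bp between their start sites. *HHF1*, on chromosome II with its TSS at 255740 and its pAS at 255260, had a promoter signal of 107 in naked DNA, 59.4 in replicate 1 and 15.6 in replicate 2. *HHT1* had 138, 86.4 and 120.3. Replicate 2 was thus the lowest library on the H4 side and not on the H3 side. Their gene bodies had 40.5, 41.3 and 147, and 61.6, 56.7 and 55.8, so that only *HHF1* in replicate 2 differed much from naked DNA. In the 3 other listed histone genes, 2 promoters were lower in both replicates and 1 was higher, where 17.2% and 17.5% of all genes were. So few genes give no share. Histone genes exist as closely similar copies, which limits unambiguous mapping.

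The vacuolar proton pump acidifies the vacuole. Of its 4 members, none was called at the promoter. *VMA3*, a ring subunit, had a promoter signal of 8.90 in naked DNA, 3.17 in replicate 1 and 0.918 in replicate 2, and *VMA1*, the catalytic subunit, had 12.2, 12.7 and 10.1. *VMA9*, a small membrane subunit, had 322, 269 and 143, and *VMA8* had 25.02, 55.5 and 91.8. These promoters ranged from empty to well above the genome mean in all 3 libraries. In replicate 2 the gene bodies of *VMA1*, *VMA3* and *VMA9* had ratios of −0.99, −1.33 and −0.93, and in replicate 1 of −0.30, 0.00 and 0.11. Of the 4 listed subunits that are not members, 1 promoter was lower and 0 were higher, against 17.2% and 17.5% of all genes.

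The cell wall list has 4 members, all in the TATA and fragile lists. *HSP150*, a heat-induced mannoprotein, had a promoter signal of 10.0 in naked DNA, 0.792 in replicate 1 and 1.84 in replicate 2, and *CWP2*, a major mannoprotein, had 31.7, 18.2 and 6.43. *UTR2*, a crosslinking enzyme of chitin and glucan, had 22.8, 12.7 and 15.6. None of the 4 was called. The pseudocount kept *HSP150* under 2-fold, and replicate 1 of *CIS3* lay above naked DNA. In *UTR2* both replicates, and in *CWP2* replicate 1, were less than 2-fold lower even without the pseudocount. Their gene bodies stood out by naked DNA, with 225 in *UTR2*, 287 in *CIS3*, 305 in *CWP2* and 313 in *HSP150*, and had medians of 306 and 190.5 in the replicates. In the 4 other listed cell wall genes the body medians were 201, 189 and 194, and 0 promoters were called in either direction.

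Of 2 members of the sterol list, *ERG3* had a lower promoter in both replicates, with 165.1 in naked DNA, 35.7 in replicate 1 and 26.6 in replicate 2. *ERG24*, a sterol reductase, had 32.8, 17.4 and 20.2. In the 7 other listed sterol genes 1 promoter was lower and 2 were higher, against 17.2% and 17.5% of all genes. Of 2 members of the pyrimidine list, *URA1*, dihydroorotate dehydrogenase, had a lower promoter with 62.8, 17.4 and 2.75, and *URA2*, which carries out the first steps of the pathway, had 2.78, 10.3 and 3.67. None of the 2 other listed genes of the pathway was called.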

How the data were processed

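Per the labels and methods, the authors mapped reads with GEM (version not given in the sources used here) to sacCer2, permitting 3 mismatches and discarding ambiguous reads. What they deposited is each read's position and strand. A constant display score that the authors set in each line was not used. From these positions, identical reads were limited to the number a Poisson model allows (probability 1e-10; 11 for naked DNA and 9 for each replicate), which kept 65.2% to 72.5% of reads. Reads that repeat without molecular identifiers are not independent, so counting limits cover counting error only. Each read was shifted by 73 bp to its fragment centre, spread over 81 bp for profiles, and signal was scaled to a mean of 100 over 12044507 bp.

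Peaks were sought in *dst1∆* minus naked DNA, Gaussian-smoothed (SD 20 bp), and kept when they reached 20 and lay 100 bp or more apart. The +1 nucleosome is the highest peak from 20 bp upstream to 180 bp downstream of the TSS, +2 the next one 100 to 250 bp on, and −1 the nearest 100 to 600 bp upstream of +1. A call needs a 2-fold difference from naked DNA in both replicates. The steps were tested on simulated data.

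TSS and pAS are those listed by the study; 116 of the 119 member lengths are multiples of 8 bp, so positions carry that step. Class lists (TATA, TATA-like and stable, in part) are also the study's, and no overlap test was run on them. Nothing states that replicates are separate cultures, so their spread may be technical. Symbols came from RefSeq (115 of 119 members); its coordinates were not used. Named genes are the 3 highest and 3 lowest by ratio in each window and by replicate 2 to replicate 1 at the promoter (at least 50 naked DNA fragments), and by naked DNA at the promoter, every member of the translation, histone, proton pump and cell wall lists, the deleted genes and members of pairs described; others named were chosen after their values were seen. Members and lists were chosen with earlier results of these data known. Alternatives are given at the end. Software was limma 3.58.1 in R 4.3.3, and pandas 2.3.3, scipy 1.17.1, numpy 2.4.6 and matplotlib 3.10.9 in Python 3.11.15.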

Additional observations from a re-analysis of the deposited data

How the results depend on the processing

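Of 108 values recomputed under another setting, 85 stayed within the spread between replicates or, for counts, within 1.5 times. The promoter difference between members and other genes (−0.47) was −0.25 with 1 read per strand position and −0.14 without genes that have a listed site within 500 bp upstream. It was also smaller by over 1.5 times, though within the spread between replicates, without TATA genes (−0.27), in the fragile list (−0.26) and with a pseudocount of 30 (−0.29), and it was −0.63 to −0.32 with a replicate left out. The count of members with a lower promoter (26) was 54 with scaling to the genome median, 10 without such neighbours (among 53 members), 29 to 47 with a replicate left out, and 0 with limma at an adjusted p of 0.05, which assumes that the lone naked DNA library varies like the replicates and called 0 of all 1969 genes in either direction, where 24 members and 328 genes had an unadjusted p under 0.05. The gene body difference (−0.19) was −0.080 without such neighbours, and −0.27 to −0.12 with a replicate left out. The pAS difference (−0.28) was −0.20 with 1 read per strand position, −0.39 with at least 50 naked DNA fragments, −0.088 without such neighbours, −0.18 without members near another member, −0.33 and −0.22 with pseudocounts of 1 and 30, and −0.31 with median scaling. It was −0.30 to −0.25 with a replicate left out. The difference between replicates at promoters, members minus others (−0.25), was −0.52 with a pseudocount of 1. The distance from +1 to +2 differed by −3.5 bp without members near another member and by −2 to 2 bp with a replicate left out. The fuzziness difference (0.16) reversed to −0.14 with median scaling, and was 0.72 with 1 read per strand position, 1.41 with partial subtraction (0.5) and 1.97 without the correction, and 0.0067 to 0.32 with a replicate left out. The wave amplitude of members minus others (−16.2 percentage points) was −21.0 with 1 read per strand position, −18.1 with that partial subtraction and −7.90 with no cap, and −17.2 to −15.3 with a replicate left out, and that of TATA minus TATA-like members was −61.6 to −37.9. The causes were not tested. The settings on members near another member, RP genes, the fragile list and the wave were chosen after seeing the data. No paired analysis was possible because the naked DNA library and the replicates share no more than 1 number. Depth limits promoters near 0, and 1 naked DNA library gives no error for the reference of every ratio.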
